A study of Mus musculus with 18 samples.

Results

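Dopamine neurons of the substantia nigra (SN) collected after 2 days of MPTP were compared with SN dopamine neurons of control mice. The 6 arrays were chosen by their titles, 3 of the 2 day MPTP group and 3 of the SN control group, out of 18 arrays in the series, and all 18193 genes that could be named were described. The mice were adult C57Bl/6 animals of an hTH-GFP transgenic line, in which human tyrosine hydroxylase sequences drive green fluorescent protein, and were housed singly. MPTP was injected at 4 mg/kg for 2 days, control mice received saline for 10 days, and tissue was taken 7 days after the last injection. The groups therefore differ in the agent and in the number of days of injection (2 against 10), and the effects of these cannot be told apart. In the descriptions of single samples the controls are untreated, which differs from the saline of the protocol. The other SN group had received MPTP for 10 days, and the ventral tegmental area (VTA), the neighbouring dopamine cell group, was sampled under the same treatments, with 3 arrays per group. The neurons were laser captured and their RNA was amplified before hybridisation to Affymetrix mouse arrays. The labels call the replicates biological, but do not tie arrays to mice, give the number of mice per array or say how dopamine neurons were recognised.

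MPTP is a compound that glia convert to the toxic ion MPP+, which enters dopamine neurons through the dopamine transporter and inhibits complex I of the mitochondrial respiratory chain. SN dopamine neurons are more readily lost after MPTP, and in Parkinson disease, than those of the VTA. Dopamine is made from tyrosine by tyrosine hydroxylase and aromatic amino acid decarboxylase, packed into vesicles by a vesicular monoamine transporter, and taken back into the cell by the dopamine transporter.

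The deposited values are log2 signals centred on each probe set's median over the 18 arrays, so a value of 1 means a signal 1 log2 unit above that median, and nothing can be said of absolute level. For the same reason the presence of dopamine neuron markers could not be checked by level. Differences below are 2 day MPTP minus SN control on the log2 scale, with standard errors (SE) from limma, 3 arrays per group. In captured material, fewer cells of a type and less RNA per cell cannot be told apart. SN control array 1 stood apart from the other arrays: its spread over all probe sets (median absolute deviation) was 0.349, against 0.182 to 0.256 on the other 5 arrays compared here. Counts or medians of most lists are given with and without it.

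No gene passed limma's test at an adjusted p under 0.05 (Benjamini-Hochberg over all genes): 0 of 18193 genes, or 0%, were called. At an unadjusted p under 0.05 there were 1210 genes, 6.65% of those tested, where 909.65 would be expected by chance. That count rested on single arrays: it was 847 without SN control array 1, 892 without MPTP array 2 and 781 without MPTP array 3, all below the chance number, and 1583 without SN control array 3. Of the 1210 genes, 518 (2.85%) were higher and 692 (3.80%) lower after 2 days of MPTP. The 3 MPTP arrays and the 3 control arrays did not overlap for 2641 genes (14.5%), of which 1084 (5.96%) were higher and 1557 (8.56%) lower. Counting all genes, 8131 genes (44.7%) were higher and 10062 (55.3%) lower, with a median difference of -0.03. These shares are the background against which the gene groups below are read. The groups were chosen with earlier results of these data known, so their counts describe them and are not tests.

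**Figure D1:**
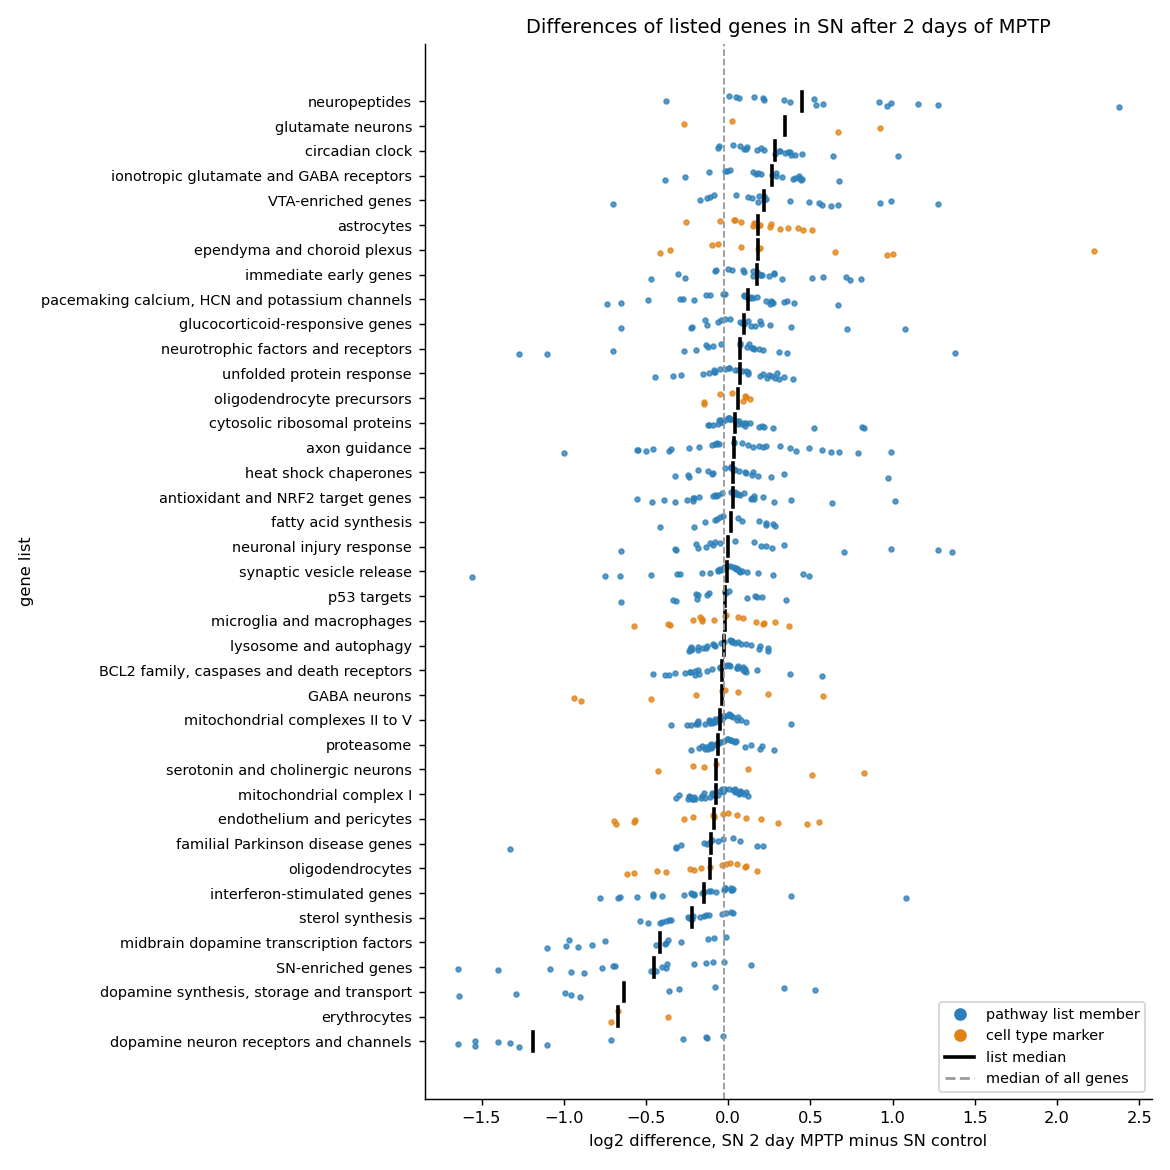
Log2 difference (x axis) between SN after 2 days of MPTP and SN control for every measured member of 39 gene lists (y axis), ordered by list median. Points are genes, black bars are list medians and the dashed line is the median of all genes at -0.03; the dopamine neuron receptor list has a median of -1.19 and the neuropeptide list a median of 0.45.

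Genes of dopamine synthesis, storage and transport had lower signals after 2 days of MPTP. Of 10 measured, 8 were lower, 5 were lower at an unadjusted p under 0.05 and 6 were lower on every MPTP array than on every control array. The list median was -0.63. None passed after adjustment over all genes. Without SN control array 1, 8 of 10 were still lower and the median was -0.62, but only 1 was at an unadjusted p under 0.05.

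Th encodes tyrosine hydroxylase, the rate-limiting enzyme of dopamine synthesis. Its centred log2 signal was 1.45, 0.59 and 0.57 on the control arrays and -0.27, -0.12 and -0.87 on the MPTP arrays. The groups did not overlap, and control array 1 was the highest. The difference was -1.29 ± 0.52, a 2.45-fold lower signal (limma, adjusted p = 0.696). With 1 array left out at a time it ran from -1.44 to -1.003. The promoter of Th is shown because it holds the cAMP response element (TGACGTCA, in capitals), a motif through which signalling by cAMP reaches the gene. The 250 bases before the RefSeq start lie at chr7:142899996-142900245 on the minus strand of GRCm38.p6, and the match covers positions -45 to -38 from the start.

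Th: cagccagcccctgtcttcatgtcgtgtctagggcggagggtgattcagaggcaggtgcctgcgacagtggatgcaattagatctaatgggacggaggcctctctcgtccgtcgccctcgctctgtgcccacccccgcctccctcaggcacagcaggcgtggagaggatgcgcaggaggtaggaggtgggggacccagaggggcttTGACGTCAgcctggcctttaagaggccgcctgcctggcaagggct

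The same motif, searched on both strands, was found in 508 of 32851 RefSeq promoter windows (1.55%), and in 1 of the 48 windows of 30 dopamine neuron genes (2.08%).

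Ddc encodes aromatic amino acid decarboxylase, which makes dopamine from DOPA. Its signal was 0.44, 0.42 and 0.34 in controls and -0.80, -0.26 and -0.44 after MPTP, so the controls were close together and all above the MPTP arrays. The difference was -0.90 ± 0.31 (adjusted p = 0.646). Gch1, which encodes GTP cyclohydrolase 1, the enzyme that starts synthesis of the cofactor of tyrosine hydroxylase, was at 1.46, 0.97 and 0.56 in controls and at -0.76, -0.48 and -0.69 after MPTP. Its difference of -1.64 ± 0.59 had an adjusted p of 0.646. The Ddc promoter is shown because it holds the binding motif of orphan nuclear receptors such as Nr4a2, a transcription factor of dopamine neurons. Ddc has 2 RefSeq promoter windows, and this window is at chr11:11898145-11898394 on the minus strand of GRCm38.p6. The motif AAAGGTCA lies on the opposite strand from position -73 to -66, and its complement is in capitals.

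Ddc: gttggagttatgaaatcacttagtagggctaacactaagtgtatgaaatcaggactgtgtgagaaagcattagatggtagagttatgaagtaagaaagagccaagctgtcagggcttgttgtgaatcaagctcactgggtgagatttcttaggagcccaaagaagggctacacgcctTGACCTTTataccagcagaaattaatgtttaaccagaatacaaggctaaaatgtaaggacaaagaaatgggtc

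That motif was present in 439 of all 32851 windows (1.34%) and in 2 of the 48 windows of the dopamine neuron genes, those of Ddc and Sox6. Nr4a2 itself differed by -0.29 ± 0.14 and was not at an unadjusted p under 0.05.

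The transporters showed the same order of arrays. Slc6a3, which encodes the dopamine transporter, was at 1.00, 0.48 and 0.42 in controls and -0.33, -0.11 and -0.53 after MPTP, a difference of -0.96 ± 0.37 (limma, adjusted p = 0.68). Slc18a2, which encodes the vesicular monoamine transporter 2, was at 1.09, 0.35 and 0.25 in controls and -0.52, -0.10 and -0.68 after MPTP, a difference of -0.99 ± 0.43 (adjusted p = 0.714). For both, the groups did not overlap and control array 1 was the highest of the 6. Qdpr, which regenerates the cofactor of tyrosine hydroxylase, differed by -0.08 ± 0.17. Maob, which encodes monoamine oxidase B, the enzyme that turns MPTP into its toxic form, was higher by 0.53 ± 0.36, with arrays that overlapped.

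Receptor and channel genes of dopamine neurons gave the lowest list median. All 12 measured were lower, 8 of them at an unadjusted p under 0.05 and with arrays that did not overlap, and the median was -1.19. With SN control array 1 left out, 9 of 12 were lower, 4 were at an unadjusted p under 0.05 and the median was -0.92. Chrna6, the nicotinic acetylcholine receptor subunit most typical of midbrain dopamine neurons, was at 1.20, 0.56 and 0.55 in controls and at -1.20, -0.63 and -0.78 after MPTP. The difference was -1.64 ± 0.54, 3.13-fold lower (adjusted p = 0.646), and its 2 probe sets gave -1.65 and -1.64. The other nicotinic subunits measured were also lower, with differences of -1.54 ± 0.40 for Chrna5, -1.54 ± 0.69 for Chrnb3 and -0.71 ± 0.33 for Chrna4. Chrnb2 was lower too, and its value is not given here.

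Ret, the signalling receptor for glial cell line-derived neurotrophic factor, was at 1.23, 0.70 and 0.51 in controls and -0.55, -0.19 and -0.63 after MPTP. The difference of -1.27 ± 0.31 was 2.41-fold lower, with an adjusted p of 0.522. Gfra1, the co-receptor that binds the factor and presents it to Ret, differed by -1.10 ± 0.30. The ligand gene Gdnf differed by -0.27 ± 0.15. Both receptor parts had arrays that did not overlap, and in the list of 21 neurotrophic factors and receptors the only other members at an unadjusted p under 0.05 were Ntrk3, the receptor for neurotrophin 3, at 0.36 ± 0.14, and Fgf2, a fibroblast growth factor, at 1.38 ± 0.60. That list had 12 higher and 9 lower members, and 13 and 8 without SN control array 1. Drd2, the dopamine autoreceptor, was at 1.86, 0.65 and 0.67 in controls and -0.33, 0.04 and -0.73 after MPTP, a difference of -1.40 ± 0.62. Ntsr1, a neurotensin receptor, differed by -1.33 ± 0.48. Smaller differences were those of Kcnj6, the G protein-gated potassium channel subunit GIRK2, at -0.14 ± 0.23, and Cacna1d, an L-type calcium channel subunit, at -0.03 ± 0.20.

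**Figure D2:**
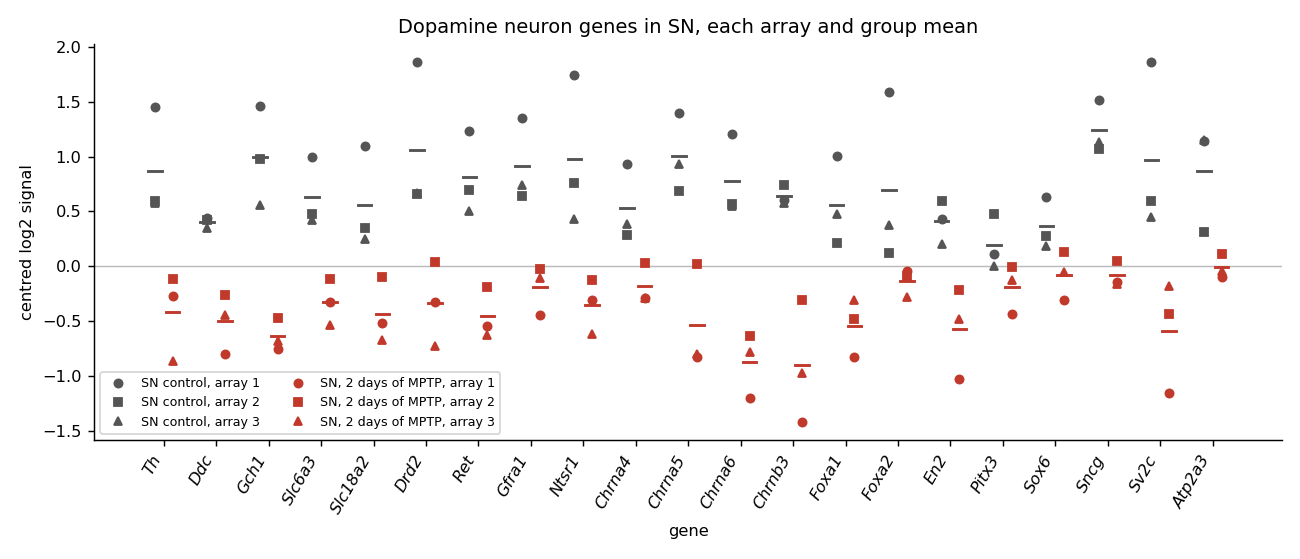
Centred log2 signal (y axis) of 21 dopamine neuron genes (x axis) on each of the 3 SN control arrays (grey) and 3 arrays of SN after 2 days of MPTP (red), with symbols for arrays 1, 2 and 3 and lines for group means. Control array 1 (grey circles) is the highest point for most genes, as for Th at 1.45, and the MPTP arrays lie lower.

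Transcription factor genes that set up and keep dopamine neuron identity were lower in all 14 measured cases, with 6 at an unadjusted p under 0.05, 10 without overlap and a median of -0.41. With that control array left out all 14 were lower, 3 were at an unadjusted p under 0.05 and the median was -0.38. Foxa1, a forkhead factor, was at 1.00, 0.21 and 0.47 in controls and -0.83, -0.48 and -0.31 after MPTP, a difference of -1.10 ± 0.30 (adjusted p = 0.564). Its relative Foxa2 differed by -0.83 ± 0.33, and by -0.38 without SN control array 1, where that array alone was at 1.59. En2, an engrailed homeobox gene, differed by -0.98 ± 0.38 and Pbx3, a homeobox cofactor, by -0.91 ± 0.35. Pitx3, a homeobox gene needed for SN dopamine neurons, differed by -0.39 ± 0.17 and Sox6, which marks SN neurons, by -0.44 ± 0.17. En1 had a large difference of -0.97 ± 0.70 but a wide error. Its MPTP array 1 was at -1.31 and the other MPTP arrays at -0.08 and -0.21. Lmx1a, an early dopamine lineage gene, differed by -0.01 ± 0.36.

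Genes enriched in SN over VTA dopamine neurons, a list that shares members such as Slc6a3 with those above, were lower in 17 of 18 cases, with 7 at an unadjusted p under 0.05 and a median of -0.45. Leaving out SN control array 1, 15 were lower, 1 was at an unadjusted p under 0.05 and the median was -0.34. Atp2a3, a calcium pump of the endoplasmic reticulum, differed by -0.88 ± 0.30. Aldh1a7, an aldehyde dehydrogenase, differed by -1.64 ± 0.76 and the closely related Aldh1a1 by -0.77 ± 0.38; signal shared between these similar genes was not tested. In contrast, 17 of 22 VTA-enriched genes were higher, 3 of them at an unadjusted p under 0.05, with a median of 0.22, which was 0.13 without SN control array 1. Plxnc1, a semaphorin receptor, was at -0.31, -0.35 and -0.37 in controls and 0.14, 0.42 and 0.29 after MPTP, a difference of 0.62 ± 0.15 (adjusted p = 0.522). Cnr1, the cannabinoid receptor, was higher by 0.67 ± 0.23 and Calb1, the calcium-binding protein calbindin, by 0.57 ± 0.22.

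Synuclein and vesicle genes included large single differences. Sncg, which encodes gamma-synuclein, was at 1.52, 1.07 and 1.13 in controls and -0.15, 0.05 and -0.16 after MPTP, a difference of -1.33 ± 0.42, 2.51-fold lower (adjusted p = 0.646). Among 14 genes of familial Parkinson disease and related synucleins, 10 were lower, and besides Sncg only Park7, the oxidative stress sensor DJ-1, was at an unadjusted p under 0.05, at -0.32 ± 0.14. Lrrk2 differed by -0.10 and Pink1 by -0.03. Among 29 synaptic vesicle release genes, 14 were higher and 15 lower, with a median of -0.01. The 4 at an unadjusted p under 0.05 and lower were Sv2c, a vesicle protein of basal ganglia neurons, at -1.56 ± 0.55, Cadps2 at -0.75, Cplx1 at -0.66 and Rab3c at -0.47. Syn2, a synapsin, was higher by 0.49 ± 0.19. Omitting SN control array 1, none of the 29 was lower at an unadjusted p under 0.05, 18 were higher, and the median was 0.05. The Parkinson disease list had 10 of 14 lower there, with a median of -0.13.

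The smallest adjusted p, 0.0637, was shared by Fmo2, Trdn, Per2, Wdfy1 and the clone 2410004I01Rik, which was named after its values were seen. Fmo2 encodes a flavin-containing monooxygenase, which oxidises foreign compounds. It was at -0.46, 0.11 and -0.08 in controls and 1.05, 1.03 and 0.73 after MPTP, a difference of 1.08 ± 0.17, 2.11-fold higher. Per2, a repressor of the circadian clock, was at -0.19, -0.23 and -0.13 in controls and 0.72, 0.93 and 0.89 after MPTP, a difference of 1.03 ± 0.17. For both genes the gap between groups was wider than the spread within either group. Trdn encodes triadin, a protein of calcium release sites in muscle. It was at -0.18, -0.48 and -0.33 in controls and 0.43, 1.15 and 0.48 after MPTP, a difference of 1.02 ± 0.16. Wdfy1, which encodes a FYVE-domain protein of endosomes, was at -0.10, 0.04 and 0.29 in controls and -0.72, -0.79 and -0.69 after MPTP, a difference of -0.81 ± 0.13. The clone was higher on every MPTP array than on every control array. Under a repeated quantile normalisation these 5 genes and Hspa1b passed the adjusted threshold, and with array weights 20 genes did, these 6 among them.

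The probe sets of these genes disagreed in size. The 5 probe sets of Fmo2 ran from 0.06 to 2.33 and the 6 of Trdn from 0.04 to 1.80, all in the same direction. Those of Per2 gave 0.50, 1.29 and 1.31. Wdfy1 had 3 probe sets at -1.70, -1.31 and -0.98, and 2 at -0.11 and 0.04, so its gene mean of -0.81 lies between these.

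**Figure D3:**
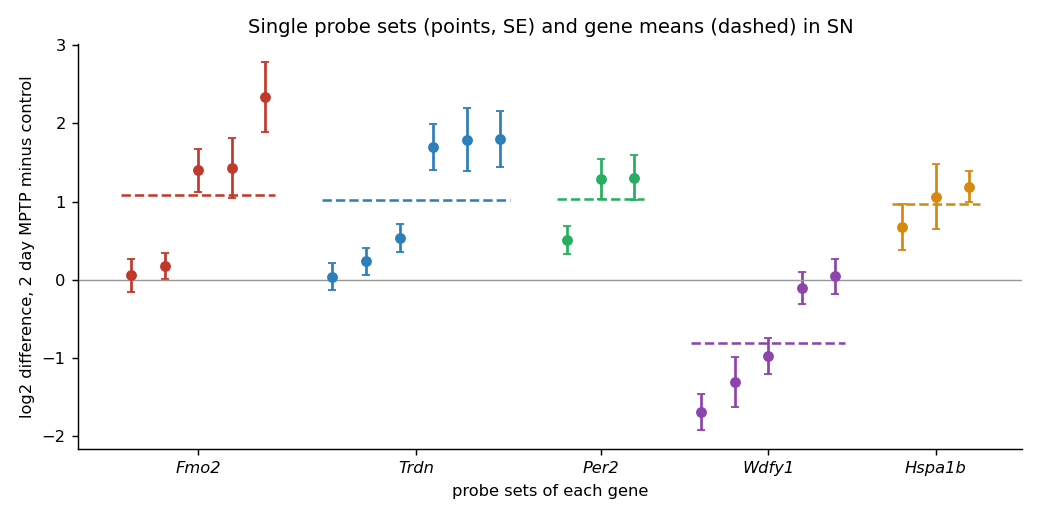
Log2 difference between SN after 2 days of MPTP and SN control (y axis) for each probe set of Fmo2, Trdn, Per2, Wdfy1 and Hspa1b (x axis). Points are probe sets with SE bars and dashed lines are gene means; Fmo2 probe sets range from 0.06 to 2.33 around a mean of 1.08.

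The named genes of smallest p without overlap between groups varied in their known roles. Among the higher ones, Reln, an extracellular guidance protein, was at -0.49, -0.40 and -0.56 in controls and 0.45, 0.23 and 0.24 after MPTP, a difference of 0.79 ± 0.16 (adjusted p = 0.221). Ecel1, an endopeptidase induced by nerve injury, was higher by 1.36 ± 0.29 (adjusted p = 0.274), and passed when SN control array 3 was left out, at 1.75. Tac2, the neurokinin B precursor, had the largest difference among the named genes, 2.38 ± 0.53 (adjusted p = 0.332), with control arrays from -2.73 to -0.34 and MPTP arrays from 0.37 to 2.08. Hap1, a huntingtin-associated protein, was higher by 1.08 ± 0.23 and the integrin gene Itga4 by 0.73 ± 0.16. Sowaha and the kinase gene Stk36 were higher by 0.71 ± 0.14 and 0.64 ± 0.13, and Rfx3, a transcription factor of ciliated cells, by 0.84 ± 0.20. Pbld2 was higher by 1.02 ± 0.25.

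Among the lower ones, Milr1, a mast cell immunoglobulin-like receptor, was at 0.77, 0.70 and 0.85 in controls and -0.16, -0.43 and -0.22 after MPTP, a difference of -1.04 ± 0.20 (adjusted p = 0.213). Netrin-1, encoded by Ntn1 and a guidance cue for axons, was at 0.68, 0.49 and 0.08 in controls and -0.68, -0.60 and -0.46 after MPTP, a difference of -0.999 ± 0.21 (adjusted p = 0.221). F2r, the thrombin receptor PAR1, was lower, at -1.24 ± 0.26, as were Pop4, a subunit of ribonuclease P, at -1.10 ± 0.22, and Tpbg, a trophoblast glycoprotein, at -0.91 ± 0.18. The junction gene Gja5 and the adhesion gene Mcam, both of vessels, differed by -0.74 ± 0.15 and -0.84 ± 0.20. Mgarp, a mitochondrial protein, was at -0.86 ± 0.19, the zinc finger genes Zfp560 and Zfp112 at -0.63 ± 0.12 and -0.60 ± 0.14, and the homeobox gene Mnx1 at -0.51 ± 0.12. All of these were lower on every MPTP array than on every control array. In the guidance list as a whole, 17 of 31 genes were higher and 14 lower, with 4 and 2 at an unadjusted p under 0.05, and 19 were higher and 12 lower without SN control array 1.

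**Figure D4:**
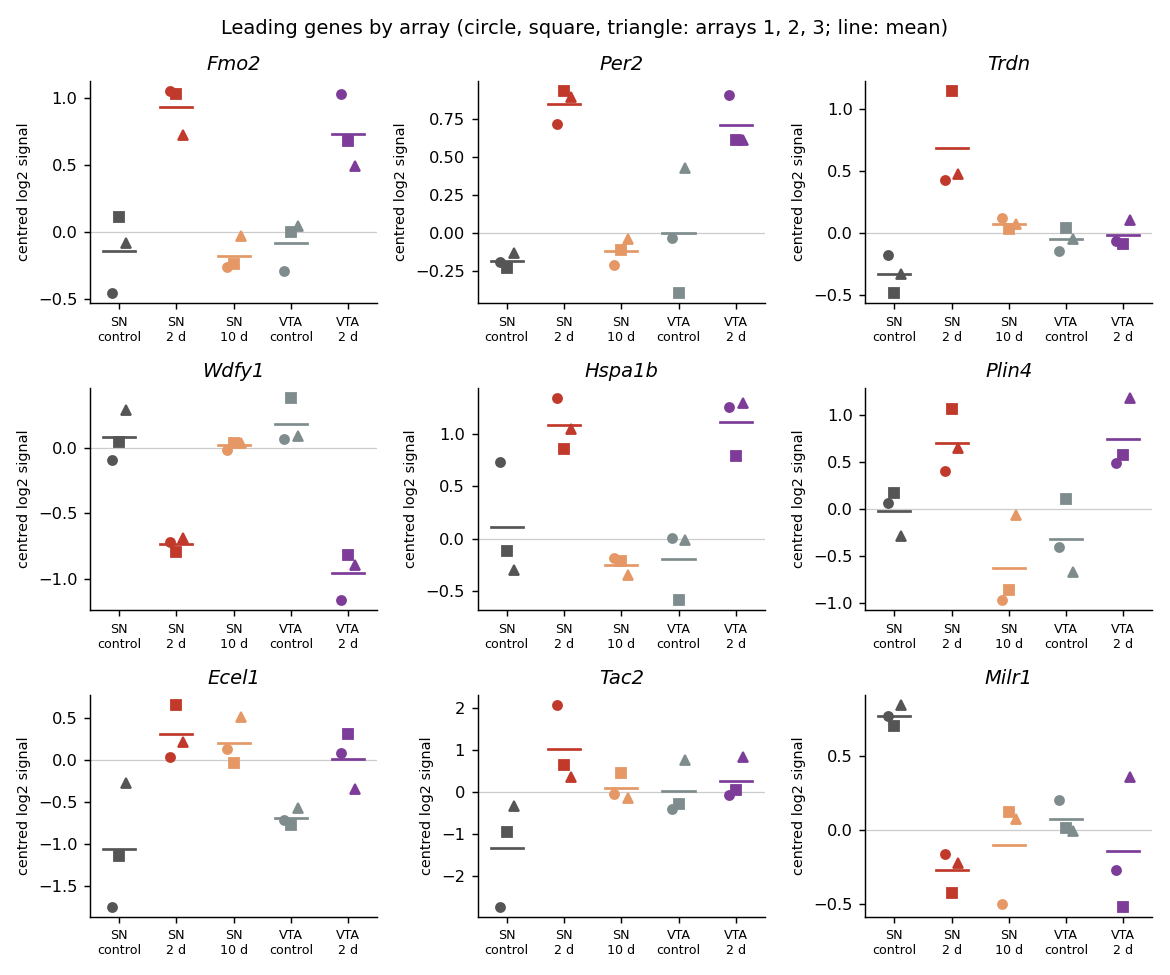
Centred log2 signal (y axis) of 9 genes on each array of SN control, SN after 2 days of MPTP, SN after 10 days of MPTP, VTA control and VTA after 2 days of MPTP (x axis); symbols are arrays 1, 2 and 3 and lines are group means. Fmo2, Per2, Hspa1b and Plin4 have higher group means, and Wdfy1 lower ones, in both groups given MPTP for 2 days than in the others.

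The circadian clock genes were mostly higher. The clock runs on transcription factors that switch on their own repressors, the Per and Cry genes, through E-box motifs, and on a further loop that acts through D-box motifs. Of 21 measured, 19 were higher, 5 of them at an unadjusted p under 0.05, with a median of 0.29. When SN control array 1 was left out, 14 were higher, 2 were at an unadjusted p under 0.05 and the median was 0.11, since that array had a list mean of -0.43, against 0.07 and -0.00 on the other control arrays and 0.12 to 0.18 on the MPTP arrays. Besides Per2, Cry1 was at -0.84, -0.02 and 0.00 in controls and 0.00, 0.39 and 0.66 after MPTP, a difference of 0.64 ± 0.21. Per3 was at -0.29, -0.06 and 0.06 in controls and 0.30, 0.37 and 0.27 after MPTP, a difference of 0.41 ± 0.14. Tef, a D-box activator, was higher by 0.38 ± 0.16 and Npas2, a partner of the clock activator, by 0.45 ± 0.20. Clock and Arntl, the activators themselves, differed by 0.11 ± 0.13 and 0.37 ± 0.29. The promoters of Cry1 and Per3 are printed because they hold these clock motifs in capitals.

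Cry1: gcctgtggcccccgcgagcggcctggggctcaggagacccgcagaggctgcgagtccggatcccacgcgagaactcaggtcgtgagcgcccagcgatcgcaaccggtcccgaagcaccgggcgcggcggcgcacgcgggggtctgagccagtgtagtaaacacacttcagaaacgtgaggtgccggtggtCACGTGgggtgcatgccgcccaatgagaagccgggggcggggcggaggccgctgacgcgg
Per3: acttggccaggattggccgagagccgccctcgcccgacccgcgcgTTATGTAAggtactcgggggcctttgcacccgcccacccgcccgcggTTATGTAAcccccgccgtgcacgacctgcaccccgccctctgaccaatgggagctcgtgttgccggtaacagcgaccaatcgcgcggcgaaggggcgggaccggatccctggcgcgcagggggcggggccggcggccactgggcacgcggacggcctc

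The Cry1 window is at chr10:85185055-85185304, with the E-box CACGTG from position -60 to -55, and the Per3 window at chr4:151044666-151044915, with the D-box TTATGTAA at -205 to -198 and again at -158 to -151, both on the minus strand of GRCm38.p6. An E-box was found in 6 of 27 windows of the clock genes (22.2%) and in 1978 of all 32851 (6.02%). The D-box was found in 1 of the 27 and in 269 of all windows (0.819%). Both motifs were searched on both strands.

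Genes known to respond to glucocorticoids did not share a direction against control. Of 23 measured, 15 were higher and 8 lower, with a median of 0.09, and Fmo2 and Plin4 were higher and Cdkn1a lower at an unadjusted p under 0.05. Plin4, a lipid droplet coat protein, was at 0.07, 0.17 and -0.29 in controls and 0.40, 1.06 and 0.65 after MPTP, a difference of 0.72 ± 0.27. Cdkn1a, a cell cycle inhibitor, was at 0.54, 0.73 and 0.74 in controls and 0.23, -0.14 and -0.04 after MPTP, a difference of -0.65 ± 0.30. Fkbp5, a chaperone of the glucocorticoid receptor, differed by 0.01 ± 0.22 and Tsc22d3 by 0.09 ± 0.17. With SN control array 1 omitted, 12 of the 23 were higher, 2 at an unadjusted p under 0.05, and the median was 0.02.

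Stress response genes showed few differences. Hspa1b, an inducible heat shock chaperone, was at 0.73, -0.12 and -0.30 in controls and 1.34, 0.85 and 1.05 after MPTP, a difference of 0.97 ± 0.24 (adjusted p = 0.522). Control array 1 was nearest to the MPTP arrays. Its near-identical copy Hspa1a differed by 0.34 ± 0.34, and signal shared between the copies was not tested. Hspa1b was the only member of 23 heat shock chaperones at an unadjusted p under 0.05. The Hspa1b promoter is shown for its heat shock element, the motif through which heat shock factor acts. Its window is at chr17:34959239-34959488 on the minus strand of GRCm38.p6, with the core GAANNTTC from -104 to -97 in capitals.

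Hspa1b: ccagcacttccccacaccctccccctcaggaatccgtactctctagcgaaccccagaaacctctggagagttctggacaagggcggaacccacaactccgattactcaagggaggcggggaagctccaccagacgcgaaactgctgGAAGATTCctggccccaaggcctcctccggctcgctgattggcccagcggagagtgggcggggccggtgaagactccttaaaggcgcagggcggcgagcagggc

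That core was in 8 of 26 windows of the heat shock genes (30.8%) and in 2199 of all windows (6.69%), searched on both strands. Among 28 genes of the unfolded protein response, 18 were higher, with a median of 0.07, and only Creld2 was at an unadjusted p under 0.05, at 0.40 ± 0.17. Of 31 antioxidant genes, 17 were higher, and Mt3, a metallothionein, was higher by 0.63 ± 0.24 while Gss and Txn1, of glutathione and thioredoxin metabolism, differed by -0.46 ± 0.21 and -0.33 ± 0.15. The probe sets of Txn1 gave -0.07 and -0.58. Of 30 genes of the BCL2 family, caspases and death receptors, 13 were higher and 17 lower. Hrk, a promoter of neuronal apoptosis, was higher by 0.57 ± 0.20 and Bad lower, at -0.36 ± 0.15. Of 20 injury response genes, 10 were higher and 10 lower, with Sox11, a transcription factor of regenerating neurons, higher by 0.71 ± 0.20. Several of these counts differed when SN control array 1 was omitted. Antioxidant genes were then higher in 14 of 31 cases (median -0.07), with none at an unadjusted p under 0.05, and injury response genes in 8 of 20 (-0.10). The BCL2 list had 20 of 30 lower (-0.09), the unfolded protein response list 18 of 28 higher (0.05) with none at an unadjusted p under 0.05, and the heat shock list 14 of 23 higher (0.02) with 2.

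Genes of energy and protein turnover had list medians between -0.08 and 0.04. None of 38 complex I genes, the target of MPP+, was at an unadjusted p under 0.05, where 26 were lower and the median was -0.08. The same held for 38 genes of complexes II to V (27 lower, median -0.05), 31 proteasome genes (20 lower, -0.06), 29 lysosome and autophagy genes (-0.02) and 31 ribosomal protein genes (0.04), each with 0 genes at an unadjusted p under 0.05. Without SN control array 1, 2 complex I genes and 1 gene of complexes II to V were at an unadjusted p under 0.05, all lower. In that fit 29 of 38 complex I genes were lower (median -0.11), as were 30 of 38 of complexes II to V (-0.12), 24 of 31 of the proteasome (-0.10) and 16 of 29 of lysosome and autophagy (-0.05). The ribosomal protein genes turned from 21 higher to 20 lower, with a median of -0.06.

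Sterol synthesis genes were lower as a group. Of 20 measured, 18 were lower, 6 at an unadjusted p under 0.05 and 9 without overlap, with a median of -0.22. In the fit without SN control array 1, 19 were lower, 4 at an unadjusted p under 0.05, and the median was -0.15. Hsd17b7, an enzyme of cholesterol synthesis, was at 0.36, 0.13 and 0.19 in controls and -0.16, -0.46 and -0.17 after MPTP, a difference of -0.49 ± 0.16. Insig1, the sterol sensor that holds back the pathway's transcription factor, differed by -0.41 ± 0.14 and Cyp51, lanosterol demethylase, by -0.40 ± 0.14. Srebf2, the factor that drives the pathway, differed by -0.11. Of 14 fatty acid synthesis genes 7 were lower and 7 higher, and Elovl6, an elongase, was at -0.42 ± 0.17, while without SN control array 1 8 were higher and none was at an unadjusted p under 0.05.

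Receptors for fast transmitters were mostly higher. Of 21 glutamate and GABA receptor subunits, 16 were higher, 7 without overlap and 4 at an unadjusted p under 0.05, with a median of 0.27, and without SN control array 1 16 were higher, 2 at an unadjusted p under 0.05, with a median of 0.21. Grin3a, an NMDA receptor subunit, was at -0.64, -0.65 and -0.21 in controls and 0.23, -0.05 and 0.33 after MPTP, a difference of 0.68 ± 0.17 (adjusted p = 0.53). Gria2 and Gria3, AMPA receptor subunits, were higher by 0.45 ± 0.20 and 0.44 ± 0.16, and Gabra3, a GABA receptor subunit, by 0.40 ± 0.17. Grik3, a kainate receptor subunit, was lower, at -0.38 ± 0.16. Of 18 neuropeptide genes 17 were higher, with a median of 0.45, but only Tac2 was at an unadjusted p under 0.05. Leaving that control array out, the count was 11 of 18 and the median 0.11, as the mean of the list was -1.13 on that array and -0.17 and -0.03 on the other controls.

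Immediate early genes, which neurons switch on with activity, were higher in 19 of 25 cases with a median of 0.18, but without SN control array 1 in 12 of 25, with a median of -0.03. Nr4a1, an orphan nuclear receptor, was at -0.72, 0.01 and -0.14 in controls and 0.49, 0.42 and 0.46 after MPTP, a difference of 0.74 ± 0.26. At an unadjusted p under 0.05, 2 members were higher, Nr4a1 and Egr4, and 1 was lower, Klf4. Without SN control array 1, 0 were higher and 2 lower at that threshold. Interferon-stimulated genes were lower in 22 of 28 cases, with a median of -0.15, and in 21 without that array. Irf9, part of the complex that carries the interferon signal to the nucleus, went the other way: it was higher by 1.08 ± 0.28, with controls at -1.21, -0.10 and -0.30 and MPTP arrays at 0.81, 0.45 and 0.38.

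Markers of other cells that laser capture can take along moved to different extents. Astrocyte genes were higher in 15 of 17 cases, with a median of 0.18 and 4 at an unadjusted p under 0.05. Their list mean ran from -0.16 to -0.01 on the control arrays and from -0.02 to 0.21 on the MPTP arrays. Fgfr3 was higher by 0.51 ± 0.15 and the glutamate transporter gene Slc1a3 by 0.45 ± 0.17, while Gfap, the classic astrocyte marker, differed by -0.26 ± 0.44 and Aldh1l1 by -0.05 ± 0.18. Without SN control array 1, 13 were higher and 1 was at an unadjusted p under 0.05. Markers of glutamate neurons (3 of 4 higher, median 0.34) included Slc17a7, a vesicular glutamate transporter, at 0.67 ± 0.30. Those of GABA neurons (6 of 9 lower, median -0.04) ran from -0.94 to 0.58. The 2 at an unadjusted p under 0.05 were Gata3 at -0.90 ± 0.31 and Slc32a1, the vesicular GABA transporter, at -0.47 ± 0.20. Without SN control array 1, no marker of glutamate or GABA neurons was at an unadjusted p under 0.05. Oligodendrocyte markers were lower in 10 of 15 cases (median -0.11), and in 14 of 15 without SN control array 1. Microglial markers (10 of 17 lower, median -0.02), precursors of oligodendrocytes (3 of 8 lower, 0.06), endothelium and pericytes (11 of 17 lower, -0.08) and markers of serotonin and cholinergic neurons (4 of 7 lower, -0.07) lay near 0. All 3 erythrocyte genes were lower, with a median of -0.67, and Hbb-b2, a beta globin gene with near-identical copies, was at -0.71 ± 0.26. Ependyma and choroid plexus genes were higher in 7 of 11 cases (median 0.18), and 1, Capsl, was at an unadjusted p under 0.05. Capsl was at -0.15, -0.34 and -0.22 in controls and -0.15, 0.85 and 1.47 after MPTP, a difference of 0.96 ± 0.37 with MPTP array 1 close to the controls. Ttr, the transthyretin gene, was at 2.23 ± 2.30. The list median was 0.05 without SN control array 1. With SN control array 1 omitted, medians were -0.24 for oligodendrocytes, -0.11 for microglia, -0.11 for endothelium and pericytes, -0.19 for GABA neurons, 0.12 for glutamate neurons and -0.49 for erythrocyte genes. The part of these cells in the differences above was not tested.

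To see how the state after 2 days differs from that after longer exposure, the same arrays were set against the 3 arrays of SN after 10 days of MPTP. Of 18193 genes 3 (0.0165%) passed limma's test, and 549 (3.02%) had an unadjusted p under 0.05. Fmo2 was higher after 2 days, by 1.11 ± 0.17 (adjusted p = 0.0351), with 10 day arrays at -0.26, -0.24 and -0.04 against 1.05, 1.03 and 0.73. AA388235 and H2-K1, a classical MHC class I gene, were lower after 2 days, at -1.56 ± 0.20 and -1.54 ± 0.21 (adjusted p = 0.0135 for each). At 2 days H2-K1 was at -0.12, -0.27 and -0.36, close to its controls at -0.22, 0.24 and -0.28, and at 10 days it was at 1.22, 1.03 and 1.61. With probe sets tested singly, those of H2-K1 at -3.69 and -1.66 were called and its others were not. Probe sets of H2-D1, another class I gene, were called at -2.71, -2.29 and -2.15. Signal shared between these genes was not tested. AA388235 was at -0.32, -0.17 and -0.27 at 2 days and 1.68, 1.41 and 0.84 at 10 days. AA388235 was also the single gene called between 10 days of MPTP and SN control, at 1.43 ± 0.20 (adjusted p = 0.0404; 1 of 18193 genes, 0.00550%). No gene of the 3 was called in all fits with 1 array left out. AA388235 was named after its values were seen.

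Other genes of small p at 2 days were also far from the 10 day arrays, without passing. Per2 was higher than at 10 days by 0.97 ± 0.17 and Hspa1b by 1.33 ± 0.24, and Wdfy1 was lower, at -0.75 ± 0.13 (adjusted p = 0.106 for each). Plin4 was higher by 1.34 ± 0.27 (adjusted p = 0.326). The comparison of 10 days with control shares arrays with both others, and its values were -0.03 ± 0.17 for Fmo2, 0.06 ± 0.17 for Per2, -0.06 ± 0.13 for Wdfy1 and -0.36 ± 0.24 for Hspa1b. Th, by contrast, differed between 2 and 10 days by -0.43 ± 0.52, Ret by -0.54 ± 0.31 and Chrna6 by -1.02 ± 0.54, all with adjusted p values of 1.00 to 2 decimals. The median of the receptor and channel list was -1.19 at 2 days and -0.59 at 10 days against control. For dopamine synthesis, storage and transport these medians were -0.63 and -0.37, and for transcription factors -0.41 and -0.30. SN-enriched genes were at -0.45 and -0.39, with 17 of 18 lower at both times, and VTA-enriched genes at 0.22 and 0.31.

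All 23 glucocorticoid-responsive genes were higher at 2 than at 10 days, where 8710 of all genes (47.9%) were. Against control, 22 of the 23 were lower at 10 days, with a median of -0.24, where 9709 of all 18193 genes were lower. The median of 2 days against control was 0.09, so the gap lay more in lower signals at 10 days. The median difference of the 23 genes between 2 and 10 days was 0.25, and 6 of them were at an unadjusted p under 0.05 in that comparison. Besides Fmo2 and Plin4 these were Sgk1, a kinase raised by glucocorticoids, at 0.97 ± 0.35, Per1 at 0.85 ± 0.33, Zbtb16 at 0.82 ± 0.20 and Fkbp5 at 0.65 ± 0.22. For the last 4, the 2 day arrays overlapped with the controls. Of the clock genes, 5 of 21 were lower at 2 than at 10 days and 6 were at an unadjusted p under 0.05. Among unfolded protein response genes 7 of 28 were lower at 2 than at 10 days, and 6 were at an unadjusted p under 0.05, among them Hspa5, the main chaperone of the endoplasmic reticulum, at 0.50, and Sdf2l1 at 0.92. Against control, 22 of these 28 genes were lower at 10 days, with a median of -0.14, where the 2 day median was 0.07.

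**Figure D5:**
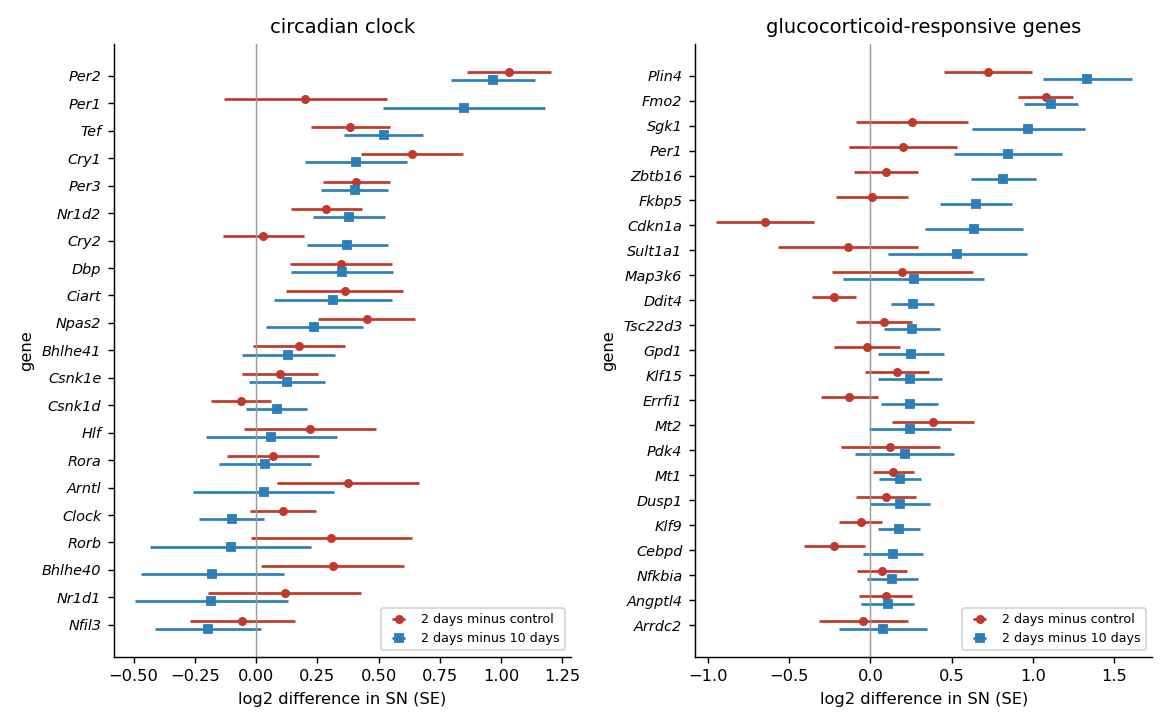
Log2 differences with SE (x axis) of 21 circadian clock genes and 23 glucocorticoid-responsive genes (y axis) in SN, for 2 days of MPTP minus control (red circles) and 2 days minus 10 days of MPTP (blue squares). All 23 glucocorticoid-responsive genes lie above 0 in the comparison with 10 days, whereas 15 do so against control.

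The response to 2 days of MPTP was also compared between SN and VTA, with the difference of the 2 responses as the test. No gene passed (0 of 18193, 0%), and 601 genes (3.30%) were at an unadjusted p under 0.05. The smallest adjusted p was 0.701, shared by Zfp112, Lmo1, Zwilch and P2rx7. Zwilch, a kinetochore gene, differed between the responses by -2.18 ± 0.44 and P2rx7, an ATP-gated channel, by 1.38 ± 0.28. In the VTA itself 2 genes (0.0110%) were called between 2 days of MPTP and control, Capsl at 2.48 ± 0.37 and Wdfy1 at -1.13 ± 0.13 (adjusted p = 0.0414 and 0.00515). Wdfy1 had VTA controls at 0.07, 0.38 and 0.09 and MPTP arrays at -1.16, -0.82 and -0.89. Other genes of small p in SN gave VTA differences of 0.82 ± 0.17 for Fmo2, 0.71 ± 0.17 for Per2, 1.31 ± 0.24 for Hspa1b and 1.07 ± 0.27 for Plin4, none called. Differences of the responses, SN minus VTA, were 0.26 ± 0.24 for Fmo2, 0.32 ± 0.24 for Per2, 0.32 ± 0.19 for Wdfy1 and -0.33 ± 0.34 for Hspa1b. Trdn differed most of these, with 0.03 ± 0.16 in VTA and a difference of the responses of 0.98 ± 0.23 that did not pass. For Th the VTA difference was -0.79 ± 0.52, for Slc6a3 -0.46 ± 0.37 and for Ret -0.80 ± 0.31. The dopamine receptor list had a median of -0.72 in VTA against -1.19 in SN, and the difference of the responses for Th was -0.50 ± 0.74. Glial and vessel markers were mostly lower in VTA after 2 days, where 9383 of all 18193 genes were. Medians were -0.39 for oligodendrocytes, -0.28 for microglia and -0.28 for endothelium and pericytes. For astrocytes the median was -0.16 (14 of 17 lower), against 0.18 in SN, and 0.34 for the difference of the responses. Ependyma (0.51) and serotonin and cholinergic markers (0.13) had VTA medians above 0. The part of these cells was not tested. Whether SN and VTA tissue was taken from shared animals is not stated in the labels.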

How the data were processed

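Gene expression was measured on Affymetrix mouse arrays in 18 samples, grouped by their titles into 6 groups of 3. The deposited log2 values were RMA normalised by the authors in GeneSpring GX 10.0 (per the labels' design text; the submitters' processing notes list RMA). A property checked here is that each probe set's median over the 18 arrays is 0 to within 5e-07. The values used here hold no level or detection call, so dim probe sets were kept; precision is limited by 3 arrays per group.

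Of 45101 probe sets, 34945 had 1 gene symbol in the platform table, 932 several and 9160 none, and 64 were controls; those with other than 1 symbol were left out. Probe sets of a gene were averaged (18193 genes, 9010 with several). The fit used lmFit and eBayes of limma 3.58.1 (R 4.3.3), with 6 group means over all 18 arrays, 12 residual and 4.06 prior degrees of freedom, two-sided, with Benjamini-Hochberg adjustment over all genes in each comparison and a threshold of 0.05. SDs and SEs measure the spread between samples, and the labels do not tie these to single mice. The fit was tested on simulated data.

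The 39 lists (742 of 821 genes measured) and the members were chosen with earlier results of these data known. Named genes are Th, Slc6a3, Slc18a2 and Ddc, the 12 genes of smallest p in each direction whose arrays do not overlap, up to 3 members per list and direction at an unadjusted p under 0.05 (the member of smallest p where none is), and in the other comparisons the 5 of smallest p in each direction, skipping clone symbols; other list members are given as not passing, and not every eligible gene is printed. Motifs were searched in RefSeq promoter windows of GRCm38.p6 of 250 bases. Alternatives tried are in the closing section. Figures were drawn with matplotlib in Python.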

Additional observations from a re-analysis of the deposited data

Results flagged for a closer look

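The difference between 2 and 10 days of MPTP in SN was itself tested with limma, and 3 genes passed at an adjusted p under 0.05. Fmo2 was higher at 2 days by 1.113 on the log2 scale, and higher on 3 of 3 arrays. AA388235 was lower at 2 days, at -1.563, and H2-K1 was lower, at -1.538, each lower on 3 of 3 arrays. Against SN control, AA388235 differed by -0.13 ± 0.20 and H2-K1 by -0.16 ± 0.21 at 2 days.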

How the results depend on the processing

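The comparison with control gave 0 genes in the fit as reported and also with probe sets tested singly, the probe set of largest SD, each array centred on its median, a replicate block and only the groups compared. It gave 6 genes with a repeated quantile normalisation (5 higher), 20 with array weights (11 higher, 9 lower), and 1 gene, Cnksr3 at -3.06, without the 2 arrays of widest spread, an alternative chosen after seeing the data. With 1 array left out the count ran from 0 to 3. Without SN control array 1 it was 1 (Cnksr3, at -2.17 with all arrays) and without SN control array 3 it was 3 (2410004I01Rik, Ecel1 and Eln). The comparison of 2 with 10 days gave 3 genes as reported, 9 with probe sets singly, 9 with quantile normalisation, 24 with array weights, 7 without the 2 widest arrays, 1 with the replicate block, 0 with only the groups compared and 0 to 1 with 1 array left out. The cause was not tested, except that the last settings use fewer arrays. The difference between SN and VTA responses gave 0 genes in each setting run, with a block too.

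Some list medians were recomputed in every alternative except array weights, and these kept their sign. They were those of dopamine synthesis, receptors and channels, transcription factors, SN-enriched genes, clock, neuropeptides, sterol synthesis and astrocytes. Their medians lay away from 0 in the fit as reported, which favours a stable sign. For the other lists only fits with 1 array left out were run. Without SN control array 1, a choice made after seeing the data, the median turned for immediate early genes (0.18 to -0.03), ribosomal proteins (0.04 to -0.06), antioxidant genes (0.03 to -0.07), synaptic vesicle genes (-0.01 to 0.05) and p53 targets (-0.02 to 0.03). Over all fits with 1 array left out, further medians fell on both sides of 0. These included axon guidance (-0.11 to 0.09), oligodendrocytes (-0.24 to 0.05), endothelium and pericytes (-0.16 to 0.05) and ependyma (-0.03 to 0.32). The same held for microglia, oligodendrocyte precursors, serotonin and cholinergic neurons, heat shock, injury response and fatty acid synthesis. For dopamine synthesis the median was -0.45 with probe sets singly and -0.71 to -0.53 with 1 array left out, and for receptors and channels -0.64 with probe sets singly. With the probe set of largest SD it was -0.70 for transcription factors, -0.71 for SN-enriched genes and -0.27 for sterol synthesis, where it was -0.15 without the 2 widest arrays and -0.28 to -0.15 with 1 array left out. Of 81 single genes recomputed in 14 settings, 0 turned in sign, and 17 passed in at least 1 setting. Named genes were largely picked by a small p in this comparison, which favours a stable sign. With probe sets singly, only the probe set of smallest p was used for each gene. Members outside the 81 did turn: without SN control array 1, 3 of 12 receptor and channel genes were higher, against 0 with all arrays. Deviations of same-numbered control and MPTP arrays correlated at 0.187, 0.0763 and 0.130, so the numbers were not taken to pair the groups. In the replicate block the control comparison gave 0 genes. Each of the 6 arrays correlated best with its own number in the other group, which is a hint from the data and not the design. The numbers did not carry over to the 10 day arrays. Same-numbered control and 10 day arrays correlated at -0.008, -0.080 and -0.260, and 2 day and 10 day arrays at 0.081, 0.122 and -0.082.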

Other observations

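Pacemaking channel genes, which carry the slow autonomous firing of dopamine neurons, were higher after 2 days of MPTP in 17 of 27 cases, with a median of 0.12 on the log2 scale. Cacna2d1, an auxiliary calcium channel subunit, was higher by 0.67 ± 0.25 (SE, limma) and Hcn3, a pacemaker channel subunit, was at -0.74 ± 0.35, and neither passed after adjustment over all genes. Of 17 p53 target genes 11 were lower, with a median of -0.02, and Aen, an apoptosis-enhancing nuclease, was at -0.32 ± 0.15. The probe sets of Aen disagreed in direction, at -0.58, -0.83, -0.12 and 0.26. Without SN control array 1, 20 of the 27 channel genes and 9 of the 17 p53 targets were higher, with medians of 0.15 and 0.03.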
